A study of Homo sapiens with 6 samples.

Results

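The genes described here encode the translation initiation factors (eIF) and elongation factors (eEF), with the proteins that bind or modify them. They were taken by symbol, as every gene starting with EIF and a digit from 1 to 6 or EEF and 1 or 2, apart from 1 kinase gene left out by the rule, with the brightest probe set standing for a gene. That gave 57 genes of 17687 named genes on the array, each with 1 probe set. The cells were A431, an established human line from an epidermoid carcinoma, known for its abundant receptor of epidermal growth factor (EGFR). Of the 3 groups of 2 arrays, 1 received 100 ng/ml of epidermal growth factor (EGF) together with gefitinib at 10 µM, which blocks the kinase of that receptor, 1 received the same dose of EGF alone, and the control cells received neither. In all groups the growth medium held 10% serum and a 24 h starvation came before treatment, and the labels give a harvest at 30 min. The labels do not say in which order EGF and gefitinib were added. Samples of a group are named biological replicates, all of 1 cell line, and separate cultures are not mentioned. The p-values therefore cover only the spread among these samples, and that spread may be technical.

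In initiation, eIF2 carries the initiator methionine tRNA to the small ribosomal subunit, the eIF4F complex loads that subunit at the cap of the mRNA with the help of eIF3, and scanning factors find the start codon. The elongation factor eEF1A then brings each further tRNA to the ribosome, and eEF2 moves the ribosome along the mRNA. Growth factor signalling is known to act on this machinery mainly through phosphorylation, among others of the eIF4E-binding proteins, which release the cap-binding protein eIF4E when phosphorylated. The arrays measured mRNA and not phosphorylation, protein or translation.

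All values are the authors' log2 values, with 1 value per probe set and array. A probe set counted as detected on an array where it exceeded the 95th percentile of that array's negative controls, a limit that ran from 7.14 to 7.65. Of the 57 genes, 48 lay above it on all 6 arrays, 3 on some arrays and 6 on none. Of 68 factor symbols listed by role, 12 had no named probe set and were not analysed here. EEF2, EIF4A1, EIF4A2, EIF4G2, EIF4G3, EIF4EBP3, EEF1B2 and EEF1G were among them. EIF1AY, a Y-linked gene, was counted and its values are not given. Probe sets of near-identical genes (EIF1AX and EIF1AY, EIF3C and EIF3CL, EIF5A and EIF5AL1, EEF1A1 and its pseudogenes) may share signal, so these values are uncertain.

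The cells were checked for keratinocyte markers, and 7 of 7 measured ones (keratins and adhesion proteins among them) lay above the limit on all arrays. Their summed log2 values were 99.2 and 100.5 with EGF plus gefitinib, 100.6 and 101.4 with EGF, and 97.5 and 97.8 in control. Within this list SFN was higher with EGF than in control by 1.02 and lower with EGF plus gefitinib than with EGF by -2.09 (limma adjusted p = 0.0118 and 0.000612). DSG3 was higher with EGF than in control by 1.21 (adjusted p = 0.00822), and DSP higher with EGF plus gefitinib than with EGF by 1.06 (adjusted p = 0.0444). Leukocyte markers lay above the limit for 0 of 5 genes on every array. Of 5 fibroblast markers, 1 lay above it on each treated array and 2 on each control array, with summed values of 30.1 and 31.1 with EGF plus gefitinib, 29.3 and 30.2 with EGF, and 33.1 on both control arrays. Of 5 endothelial markers at most 1 lay above the limit on any array. PECAM1, VWF, KDR and TEK of that list and COL1A1, DCN and PDGFRB of the fibroblast list lay below it on every array. All 5 fibroblast markers had negative differences between EGF and control, and 2 were called, DCN and LUM. The DCN call (fitted difference -1.21, limma adjusted p = 0.00923) thus rests on values below the limit. LUM, the fibroblast marker above the limit on all 6 arrays, was lower with EGF than in control by -1.34 (limma adjusted p = 0.0194). CDH5, above it on 2 arrays, was called lower with EGF than in control and higher with EGF plus gefitinib than with EGF. The part of these shifts in the results was not tested, and in bulk RNA fewer cells of a type and less RNA per cell cannot be told apart.

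With EGF, 10 of the 57 genes rose and 5 fell relative to control at an adjusted p under 0.05 (limma, Benjamini-Hochberg over all 21448 probe sets). Over all probe sets 6.61% were called higher and 5.3% lower (11.9% either way). Of the genes, 50 stood among the 9211 probe sets above the limit on at least 2 arrays. There 20% of the 50 genes were called higher and 10% lower, against 13.3% and 9.88% of the 9211 (23.2% either way). With EGF plus gefitinib, 5 genes rose and 15 fell relative to EGF, where 8.86% and 9.81% of all probe sets were called higher and lower (18.7% either way). Among those above the limit, 10% of the 50 genes were called higher and 30% lower, against 15.7% and 19.8% of the 9211 (35.5% either way). The shares called either way, 30% and 40% of the 50 genes, lay near these backgrounds. A fit on the 9211 probe sets alone called 15 genes higher and 8 lower with EGF than in control (42.8% of the 9211 either way), and 12 higher and 18 lower with EGF plus gefitinib than with EGF (53.2%).

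The fold at the middle of the set was small. The median log2 difference of the 57 genes between EGF and control was 0.09, against -0.03 over all probe sets. Between EGF plus gefitinib and EGF it was -0.01, against 0.05 over all. A difference of 2-fold or more in size was fitted for 5 genes (8.77%) between EGF and control, against 7.91% of all probe sets. Between EGF plus gefitinib and EGF it was fitted for 12 (21.1%), against 11.6% of all. Among those above the limit on at least 2 arrays, the shares were 10% of the 50 genes against 14.7% of the 9211 probe sets, and 24% against 21.7%. The arrays of the groups did not overlap for 28 genes higher and 19 lower with EGF than in control, where 27% and 28.5% of all probe sets showed this. For EGF plus gefitinib against EGF they did not overlap for 19 higher and 25 lower, against 30.8% and 26.3% of all. Shares without overlap were not taken among the 9211 probe sets above the limit, so these counts are not set beside probe sets of like brightness.

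Both comparisons share the EGF arrays, so a gene high on those arrays tends to count in each. Beside each other, 10 genes were called higher with EGF and lower with EGF plus gefitinib (EIF5A2, EIF1AD, EIF2B3, EEF2KMT, EIF4E, EIF3B, EIF2S1, EIF5B, EIF3J and EIF4G1). EIF4B and EIF2AK1 had the opposite pair of calls. Lower with EGF and with no call for gefitinib were EIF2D, EIF3L and EIF4EBP2. EIF2B2, EIF6, EIF1AX, EIF5A and EIF4A3 were lower with EGF plus gefitinib than with EGF alone, and EIF4EBP1, EEF1D and EIF3F higher, with no call for EGF against control. For 33 genes no comparison gave a call.

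**Figure D1:**
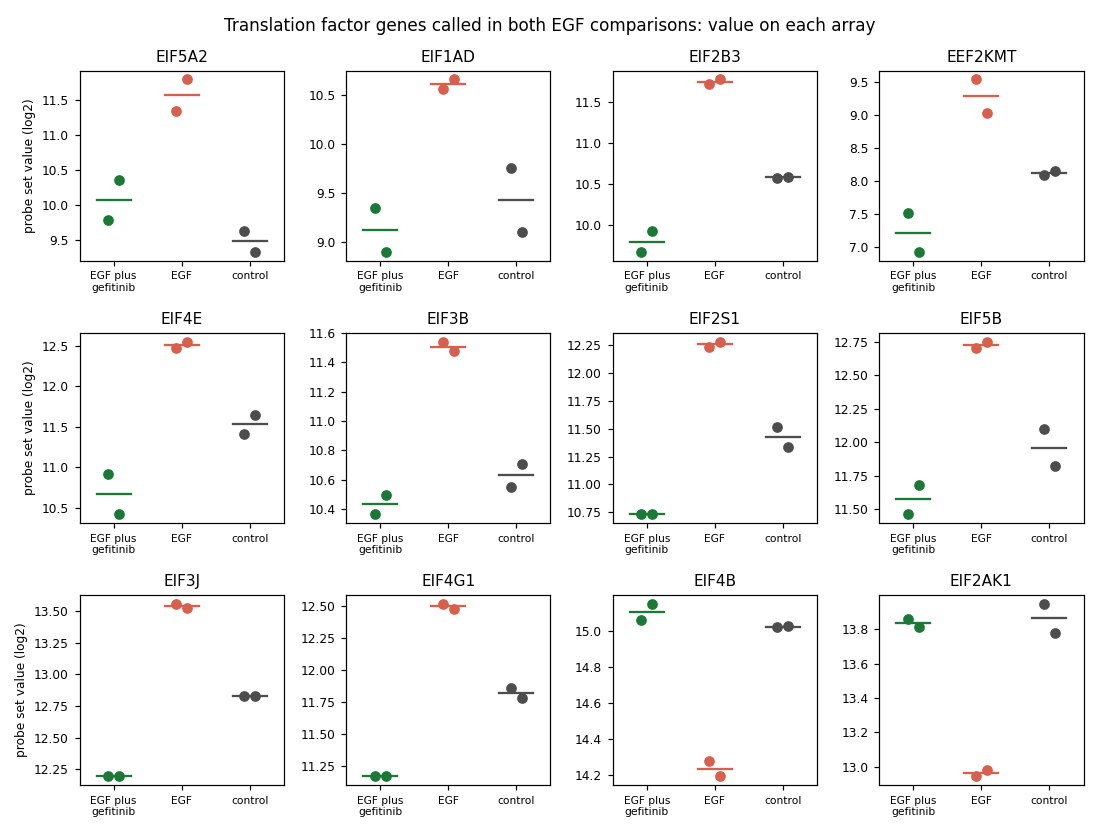
Log2 values (y axis) of the 12 genes called both for EGF against control and for EGF plus gefitinib against EGF, with a dot per array and a bar at the mean of the 2 arrays, for EGF plus gefitinib, EGF and control from left to right. The EGF arrays lie above all others for 10 genes, EIF4E among them at 12.46 and 12.55, and below all others for EIF4B and EIF2AK1.

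Many calls for EGF against control were lost with 1 array left out, among these genes as among all probe sets, of which 3.38% to 3.91% were then called in place of 11.9%. Without control array 1, 2 genes stayed called (EIF5A2 and EIF1AD). Without control array 2, EGF array 1 or EGF array 2, EIF5A2 was the only gene called in each case. No call of a lower gene stood in any of these 4 fits, while all 15 differences kept their sign. Of the 20 calls for EGF plus gefitinib against EGF, 9 held in every such fit (EEF2KMT, EIF2B3, EIF2S1, EIF3B, EIF3J, EIF4E, EIF4G1, EIF5B and EIF6). Of the 20, 9 stayed called without EGF array 2, 13 without EGF array 1, 13 without EGF plus gefitinib array 1 and 12 without EGF plus gefitinib array 2, and all 20 kept their sign. Of all probe sets 8.81% to 13.0% were called in these fits, in place of 18.7%.

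Promoter sequence was read from RefSeq (GRCh38.p14) for the 44 of 57 genes that matched the table, as 250 bases before and 50 after the annotated start. The E-box CACGTG, the site known for MYC and related factors, reads the same on both strands. It stood in 11 of the 44, against 8.77% of all 27305 genes in the table and 13.4% of the 6801 genes with a probe set above the limit. It stood in 4 of 9 matched genes called higher with EGF and in 1 of 3 called lower (EIF4B). Of those called for EGF plus gefitinib against EGF, it stood in 5 of 14 lower and in both of the 2 higher (EIF3F and EIF4B). For the 4 called higher with EGF, which were also called lower with EGF plus gefitinib, the 250 bases before the start are shown with the E-boxes in capitals. The stretch of EIF4E lies at chr4:98929134-98929383 (minus strand, E-boxes starting 225 and 72 bases before the start), EIF4G1 at chr3:184314356-184314605 (plus strand, 144 and 67, the first of 3 annotated starts), EIF5A2 at chr3:170908638-170908887 (minus strand, 187 and 162) and EIF2B3 at chr1:44986596-44986845 (minus strand, 179).
EIF4E: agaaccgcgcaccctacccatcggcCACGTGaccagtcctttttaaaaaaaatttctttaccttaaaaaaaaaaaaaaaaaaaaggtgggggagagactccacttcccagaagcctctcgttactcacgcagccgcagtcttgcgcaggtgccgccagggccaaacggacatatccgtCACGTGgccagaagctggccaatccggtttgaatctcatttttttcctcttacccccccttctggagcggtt
EIF4G1: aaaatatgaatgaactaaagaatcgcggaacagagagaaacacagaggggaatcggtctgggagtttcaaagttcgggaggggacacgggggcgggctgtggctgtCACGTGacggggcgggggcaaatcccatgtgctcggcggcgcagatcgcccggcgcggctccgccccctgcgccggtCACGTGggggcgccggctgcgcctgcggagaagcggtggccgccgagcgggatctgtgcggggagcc
EIF5A2: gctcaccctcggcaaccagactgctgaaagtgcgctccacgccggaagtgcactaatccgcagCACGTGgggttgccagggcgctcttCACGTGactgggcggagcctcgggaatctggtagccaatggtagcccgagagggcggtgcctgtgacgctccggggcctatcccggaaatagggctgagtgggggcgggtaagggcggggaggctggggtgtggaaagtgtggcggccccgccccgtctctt
EIF2B3: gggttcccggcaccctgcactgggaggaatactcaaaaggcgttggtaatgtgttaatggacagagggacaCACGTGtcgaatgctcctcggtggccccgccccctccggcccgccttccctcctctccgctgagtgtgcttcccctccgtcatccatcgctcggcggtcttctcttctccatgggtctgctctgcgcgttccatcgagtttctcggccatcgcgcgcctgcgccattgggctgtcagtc
The median log2 difference between EGF and control was 0.09 in the 11 genes with an E-box and 0.24 in the 33 without. Between EGF plus gefitinib and EGF the medians were -0.14 with it and -0.20 without. Over all genes with a probe set above the limit, the medians for EGF against control were 0.061 in 912 with it and 0.019 in 5889 without. For EGF plus gefitinib against EGF they were -0.038 and -0.030. Of 3 other motifs, searched on both strands, AP-1 (TGANTCA) stood in 5 promoters (11.4%, against 9.37% of all genes), and TGATGNAA and TGTTTAC in 1 each (2.27%, against 4.46% and 4.19%).

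A second feature lay at the start itself. Many mRNAs of the translation machinery are known to begin with a C and a run of pyrimidines, the terminal oligopyrimidine motif through which mTOR signalling acts on their translation. A C at the annotated start with 4 pyrimidines after it stood in 9 of the 44 genes (20.5%), against 5.14% of all genes and 7.51% of those with a probe set above the limit. The 9 were EEF1A1, EIF2A, EIF2D, EIF2S3, EIF3D, EIF3F, EIF3K, EIF3M and EIF4B. Stretches of 15 bases before and 15 after the start are shown with the first 5 transcribed bases in capitals, for 4 of these genes and, below them, for EIF4E and EIF2S1, which lack the motif. They lie at chr12:53006441-53006470 (EIF4B, plus strand), chr11:7987322-7987351 (EIF3F, plus), chr1:206612451-206612480 (EIF2D, minus), chr6:73521018-73521047 (EEF1A1, minus), chr4:98929119-98929148 (EIF4E, minus) and chr14:67360313-67360342 (EIF2S1, plus).
EIF4B: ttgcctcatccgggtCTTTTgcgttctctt
EIF3F: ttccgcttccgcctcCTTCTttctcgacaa
EIF2D: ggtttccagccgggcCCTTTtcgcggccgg
EEF1A1: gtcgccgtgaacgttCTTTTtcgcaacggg
EIF4E: ccttctggagcggttGTGCGatcagatcga
EIF2S1: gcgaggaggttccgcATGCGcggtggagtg
None of the 9 matched genes called higher with EGF began this way, and none of the 14 called lower with EGF plus gefitinib than with EGF. Among the 3 matched genes called lower with EGF, 2 did (EIF2D and EIF4B), as did both of the 2 called higher with EGF plus gefitinib (EIF3F and EIF4B). The median log2 difference between EGF and control was -0.20 in the 9 genes with this start (2 above 0, 7 below) and 0.26 in the 35 without (24 above, 11 below). Between EGF plus gefitinib and EGF it was 0.26 with this start and -0.38 without. Over all genes with a probe set above the limit the medians ran the same way and were closer. They were -0.08 in 511 genes with this start and 0.04 in 6290 without for EGF against control, and 0.16 and -0.05 for EGF plus gefitinib against EGF. These values describe the genes and no test was made of them.

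**Figure D2:**
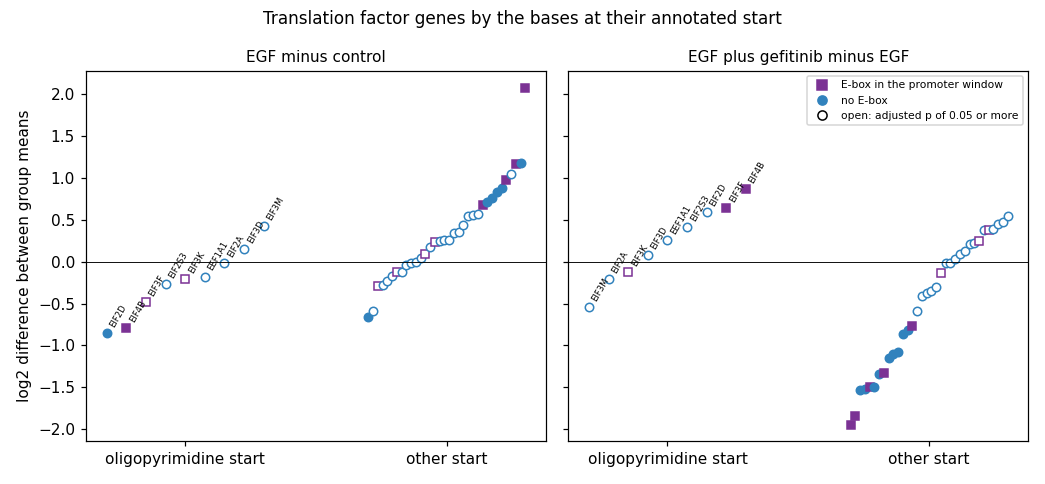
Log2 differences (y axis) of the matched genes, without EIF1AY, for EGF against control and for EGF plus gefitinib against EGF, split by an oligopyrimidine start or another start. Squares mark an E-box in the promoter and open symbols genes with no call. Genes with the oligopyrimidine start centre on -0.20 and 0.26 in the 2 comparisons, and the others, with EIF1AY counted, on 0.26 and -0.38.

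In the cap-binding complex and its helicase cofactors, EIF4E and EIF4G1 rose with EGF and EIF4B fell, of 8 genes measured. With EGF plus gefitinib, EIF4E, EIF4G1 and EIF4A3 fell relative to EGF and EIF4B rose. EIF4E, which binds the mRNA cap, had values of 10.92 and 10.42 with EGF plus gefitinib, 12.46 and 12.55 with EGF, and 11.41 and 11.65 in control. The EGF arrays were the highest and both EGF plus gefitinib arrays lay below both controls. The EGF difference was 0.98 ± 0.22 (log2 ± SE, 1.97-fold, limma adjusted p = 0.0316), and the difference of EGF plus gefitinib from EGF was -1.84 ± 0.22 (3.58-fold lower, adjusted p = 0.00204). EIF4G1, the scaffold that joins eIF4E to the helicase and to eIF3, measured 11.17 on both EGF plus gefitinib arrays, 12.52 and 12.48 with EGF, and 11.86 and 11.78 in control. Its groups lay in the same order as those of EIF4E, with no overlap. The differences were 0.67 ± 0.17 (1.6-fold, adjusted p = 0.043) for EGF and -1.32 ± 0.17 (2.5-fold lower, adjusted p = 0.00251) for EGF plus gefitinib against EGF. EIF4B, a cofactor of the helicase whose mRNA begins with the oligopyrimidine stretch shown above, gave 15.06 and 15.15 with EGF plus gefitinib, 14.28 and 14.19 with EGF, and 15.02 and 15.03 in control. The EGF arrays stood apart on the low side, and the other 4 arrays lay close together. Its differences were -0.79 ± 0.17 (limma adjusted p = 0.0262) for EGF and 0.87 ± 0.17 (adjusted p = 0.0123) for EGF plus gefitinib against EGF. EIF4A3, the helicase of the exon junction complex, differed by -0.77 (adjusted p = 0.0455) between EGF plus gefitinib and EGF. EIF4H, EIF4E2, EIF4E3 and EIF4E1B passed no test, and EIF4E1B lay above the limit on no array and EIF4E3 on 1.

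With 1 array of the compared groups left out, the EGF differences were 0.86 to 1.10 for EIF4E (adjusted p = 0.0935 to 0.158), 0.63 to 0.72 for EIF4G1 (0.147 to 0.188) and -0.83 to -0.75 for EIF4B (0.113 to 0.14), so these calls were lost without any of control 1, control 2, EGF 1 and EGF 2. For EGF plus gefitinib against EGF, EIF4B kept its call only without EGF plus gefitinib array 1 (adjusted p 0.0386 to 0.0786 over the 4 fits), and EIF4A3 lost it in all 4 (0.0539 to 0.218).

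The eIF4E-binding proteins, which hold eIF4E away from eIF4G, moved the other way from EIF4E where they were called. EIF4EBP1 read 13.30 and 13.23 with EGF plus gefitinib, 12.46 and 12.20 with EGF, and 12.90 on both control arrays. The 3 groups did not overlap, with EGF lowest. EGF plus gefitinib differed from EGF by 0.94 ± 0.18 (1.92-fold, limma adjusted p = 0.0119), while EGF differed from control by -0.58 ± 0.18 (adjusted p = 0.0885), which was not called. EIF4EBP2 had 15.23 and 15.08 with EGF plus gefitinib, 14.73 and 14.69 with EGF, and 15.36 and 15.39 in control. It was lowest with EGF, by -0.66 ± 0.17 against control (adjusted p = 0.0483), and EGF plus gefitinib differed from EGF by 0.45 ± 0.17 (adjusted p = 0.12). EIF4ENIF1, the eIF4E transporter to the nucleus, passed no test. The EIF4EBP1 call was lost without EGF array 2 and without EGF plus gefitinib array 1 (adjusted p 0.0407 to 0.0838 over the 4 fits), and the EIF4EBP2 call without any 1 of the 4 arrays compared (0.172 to 0.193).

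Among the 3 subunits of eIF2, EIF2S1 rose with EGF and fell with EGF plus gefitinib relative to EGF, and EIF2S2 and EIF2S3 passed no test. EIF2S1 encodes the alpha subunit, whose phosphorylation slows initiation. Its values were 10.73 and 10.74 with EGF plus gefitinib, 12.24 and 12.28 with EGF, and 11.52 and 11.33 in control, so the EGF arrays were highest and the EGF plus gefitinib arrays lowest. The differences were 0.83 ± 0.17 (1.78-fold, limma adjusted p = 0.0239) for EGF and -1.53 ± 0.17 (2.88-fold lower, adjusted p = 0.0017) for EGF plus gefitinib against EGF. Between EGF and control EIF2S2 differed by 0.32 and EIF2S3 by -0.26.

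The exchange factor eIF2B, which reloads eIF2 with GTP, had 5 measured subunits. EIF2B3 was called in both comparisons and EIF2B2 in that of EGF plus gefitinib with EGF. EIF2B3, the gamma subunit, gave 9.67 and 9.93 with EGF plus gefitinib, 11.72 and 11.78 with EGF, and 10.58 and 10.59 in control. The 3 groups lay apart by more than the spread within any of them. The EGF difference was 1.16 ± 0.18 (2.24-fold, limma adjusted p = 0.00876), and that of EGF plus gefitinib from EGF was -1.95 ± 0.18 (3.85-fold lower, adjusted p = 0.000848). EIF2B2, the beta subunit, read 10.17 and 9.24 with EGF plus gefitinib, 11.04 and 11.44 with EGF, and 10.32 and 10.07 in control. Its EGF plus gefitinib arrays were far apart and overlapped control, but both lay below the EGF arrays, with a difference of -1.53 ± 0.32 (adjusted p = 0.0167). EGF differed from control by 1.05 ± 0.32 (adjusted p = 0.0831). EIF2B5, the catalytic subunit, had 9.24 and 9.39 with EGF plus gefitinib, 9.46 and 9.10 with EGF, and 9.08 and 8.98 in control. Its differences were 0.24 for EGF (95% interval -0.22 to 0.71) and 0.04 for EGF plus gefitinib against EGF (-0.42 to 0.50), and neither was called. EIF2B1 and EIF2B4 passed no test.

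Of the 3 measured kinases of the eIF2 alpha subunit, EIF2AK1, the heme-regulated kinase, fell with EGF. Its values were 13.86 and 13.81 with EGF plus gefitinib, 12.94 and 12.98 with EGF, and 13.95 and 13.78 in control. The EGF arrays stood apart on the low side and the other 2 groups overlapped. The differences were -0.90 ± 0.17 (limma adjusted p = 0.0183) for EGF and 0.88 ± 0.17 (adjusted p = 0.0133) for EGF plus gefitinib against EGF. EIF2AK3, the kinase of the endoplasmic reticulum known as PERK, read 8.53 and 8.71 with EGF plus gefitinib, 8.30 and 7.85 with EGF, and 7.26 and 7.75 in control. It was highest with EGF plus gefitinib, by 1.11 ± 0.25 against control (2.16-fold), which missed the threshold at adjusted p = 0.0557. EIF2AK4, the amino acid sensor GCN2, passed no test.

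Leaving out 1 array took the EGF calls of EIF2S1 (adjusted p 0.082 to 0.137), EIF2B3 (0.0563 to 0.0636) and EIF2AK1 (0.0742 to 0.11) past the threshold in each of the 4 fits, without control 1, control 2, EGF 1 or EGF 2. For EGF plus gefitinib against EGF, EIF2B2 lost its call without EGF array 2 and without EGF plus gefitinib array 2 (0.0121 to 0.098, with a log2 difference of -2.0 to -1.07), and EIF2AK1 kept its call only without EGF plus gefitinib array 2 (0.0465 to 0.0788).

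eIF3, the many-subunit scaffold on the small ribosomal subunit, had 13 measured genes, of which EIF3B and EIF3J rose with EGF and EIF3L fell. The same 2 genes, EIF3B and EIF3J, fell with EGF plus gefitinib relative to EGF, and EIF3F rose. EIF3B, a core subunit, had 10.36 and 10.50 with EGF plus gefitinib, 11.54 and 11.47 with EGF, and 10.55 and 10.70 in control. The EGF arrays lay well above the others. Its differences were 0.88 ± 0.17 (limma adjusted p = 0.0209) for EGF and -1.08 ± 0.17 (adjusted p = 0.00635) for EGF plus gefitinib against EGF. EIF3J, a loosely bound subunit, read 12.19 and 12.20 with EGF plus gefitinib, 13.56 and 13.52 with EGF, and 12.83 on both control arrays. The groups were tight and fully separated, with differences of 0.71 ± 0.17 (adjusted p = 0.0349) for EGF and -1.34 ± 0.17 (2.54-fold lower, adjusted p = 0.00228) for EGF plus gefitinib against EGF. EIF3L had 12.72 and 12.93 with EGF plus gefitinib, 12.16 and 12.26 with EGF, and 13.24 and 12.94 in control. It was lowest with EGF, by -0.88 ± 0.19 against control (adjusted p = 0.0291). EIF3F, whose mRNA also begins with the oligopyrimidine stretch, gave 14.05 and 13.83 with EGF plus gefitinib, 13.35 and 13.24 with EGF, and 13.84 and 13.71 in control. EGF was again lowest, and EGF plus gefitinib differed from it by 0.64 ± 0.18 (adjusted p = 0.0478).

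EIF3A, the largest subunit, showed no call, at 14.30 and 14.69 with EGF plus gefitinib, 14.36 and 14.45 with EGF, and 14.25 and 14.14 in control. Its 95% intervals were -0.25 to 0.68 for EGF against control and -0.37 to 0.56 for EGF plus gefitinib against EGF. The median over the 13 subunits was 0.15 for EGF and 0.08 for EGF plus gefitinib against EGF. The EGF calls of EIF3B (adjusted p 0.0834 to 0.118), EIF3J (0.144 to 0.159) and EIF3L (0.0756 to 0.159) were lost without any 1 of control 1, control 2, EGF 1 and EGF 2, and the EIF3F call without any 1 of the EGF and EGF plus gefitinib arrays (0.0717 to 0.198).

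The list of start codon and scanning factors had 10 genes and also took in factors of other steps, as described below for EIF5B, EIF2D and EIF6. Of the 10 listed genes, 2 rose and 1 fell with EGF, and 4 fell with EGF plus gefitinib relative to EGF. EIF5B, the GTPase that joins the ribosomal subunits, read 11.46 and 11.69 with EGF plus gefitinib, 12.71 and 12.75 with EGF, and 12.10 and 11.82 in control. The EGF arrays were highest, by 0.77 ± 0.19 over control (limma adjusted p = 0.0432), and EGF plus gefitinib lay -1.15 ± 0.19 from EGF (adjusted p = 0.00682). EIF1AD, a protein with an eIF1A-like domain, had 9.34 and 8.89 with EGF plus gefitinib, 10.56 and 10.66 with EGF, and 9.76 and 9.09 in control. EGF was highest and the other 2 groups overlapped, with differences of 1.18 ± 0.27 (2.27-fold, adjusted p = 0.0322) for EGF and -1.49 ± 0.27 (2.81-fold lower, adjusted p = 0.0095) for EGF plus gefitinib against EGF. EIF2D, which can deliver tRNA to the ribosome without eIF2, gave 10.62 and 10.25 with EGF plus gefitinib, 9.70 and 9.97 with EGF, and 10.82 and 10.57 in control. It was lowest with EGF, by -0.85 ± 0.21 against control (adjusted p = 0.0449). EIF6, which keeps the ribosomal subunits apart, and EIF1AX, which takes part in scanning, differed by -1.10 (adjusted p = 0.00615) and -0.81 (adjusted p = 0.0155) between EGF plus gefitinib and EGF. EIF1, EIF1B, EIF2A and EIF5 passed no test.

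Without control array 1 the EGF difference of EIF1AD was still called (adjusted p = 0.0401, the lowest of 4 fits, whose highest was 0.151), and it was lost without control 2, EGF 1 or EGF 2. The EGF calls of EIF5B (0.097 to 0.211) and EIF2D (0.112 to 0.214) were lost in all 4 fits. For EGF plus gefitinib against EGF, EIF1AD lost its call without EGF array 2 and without EGF plus gefitinib array 2 (0.0269 to 0.0594), and EIF1AX in all 4 fits (0.0507 to 0.0842).

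Of the 6 elongation factor genes, EIF5A2 rose with EGF by more than any other gene of the set. It encodes a second form of eIF5A, the factor that carries hypusine and helps the ribosome through difficult peptide bonds. Its values were 9.79 and 10.36 with EGF plus gefitinib, 11.34 and 11.79 with EGF, and 9.64 and 9.33 in control. The 3 groups did not overlap, and the EGF plus gefitinib arrays lay above control. The EGF difference was 2.08 ± 0.27 (4.23-fold, limma adjusted p = 0.00463), and EGF plus gefitinib differed from EGF by -1.49 ± 0.27 (2.82-fold lower, adjusted p = 0.00901). EIF5A read 15.50 and 15.43 with EGF plus gefitinib, 16.24 and 16.42 with EGF, and 16.02 and 15.76 in control. It lay lowest with EGF plus gefitinib, by -0.87 ± 0.19 against EGF (adjusted p = 0.0183), and EGF differed from control by 0.44 (adjusted p = 0.185). EEF1D, a subunit of the eEF1 exchange factor, gave 17.28 and 17.24 with EGF plus gefitinib, 16.51 and 16.67 with EGF, and 16.93 and 16.91 in control. EGF was lowest, and EGF plus gefitinib differed from it by 0.67 ± 0.17 (adjusted p = 0.0348).

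EEF1A1, which encodes the main eEF1A, had 18.27 and 18.21 with EGF plus gefitinib, 18.01 and 17.94 with EGF, and 18.20 and 18.10 in control. The EGF arrays were lowest by a small margin, the log2 difference from control being -0.18 (95% interval -0.58 to 0.22, adjusted p = 0.578). EEF1A2, the form of muscle and neurons, lay at 4.12 and 4.52 with EGF plus gefitinib, 4.28 and 4.05 with EGF, and 4.18 and 4.75 in control, all below the limit, as was EIF5AL1. The EIF5A2 call for EGF held in every fit with 1 array left out (log2 difference 1.85 to 2.31, adjusted p 0.0235 to 0.0394), and its call for EGF plus gefitinib against EGF was lost without EGF array 2 (0.0197 to 0.0613). The calls of EIF5A (0.0563 to 0.109) and EEF1D (0.0851 to 0.176) were lost in all 4 fits.

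Among 5 genes for enzymes that modify elongation factors, EEF2KMT, a methyltransferase of eEF2, was called in both comparisons. It measured 7.52 and 6.93 with EGF plus gefitinib, 9.54 and 9.03 with EGF, and 8.10 and 8.15 in control. Both EGF plus gefitinib arrays lay below the limit, so that group has only an upper bound. EGF differed from control by 1.16 ± 0.26 (2.23-fold, limma adjusted p = 0.0321), and EGF plus gefitinib was at least 3.51-fold lower than EGF (adjusted p = 0.00259), a bound set against the limit on those arrays. EEF2K, the kinase that inhibits eEF2, had 7.95 and 8.35 with EGF plus gefitinib, 7.70 and 8.10 with EGF, and 7.83 and 8.21 in control. The 3 groups overlapped, with an EGF difference of -0.12 (95% interval -0.69 to 0.45). EEF1AKMT2 and EEF1AKMT3, methyltransferases of eEF1A, passed no test. The EGF call of EEF2KMT was lost in all 4 fits with 1 array left out (adjusted p 0.0641 to 0.168).

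**Figure D3:**
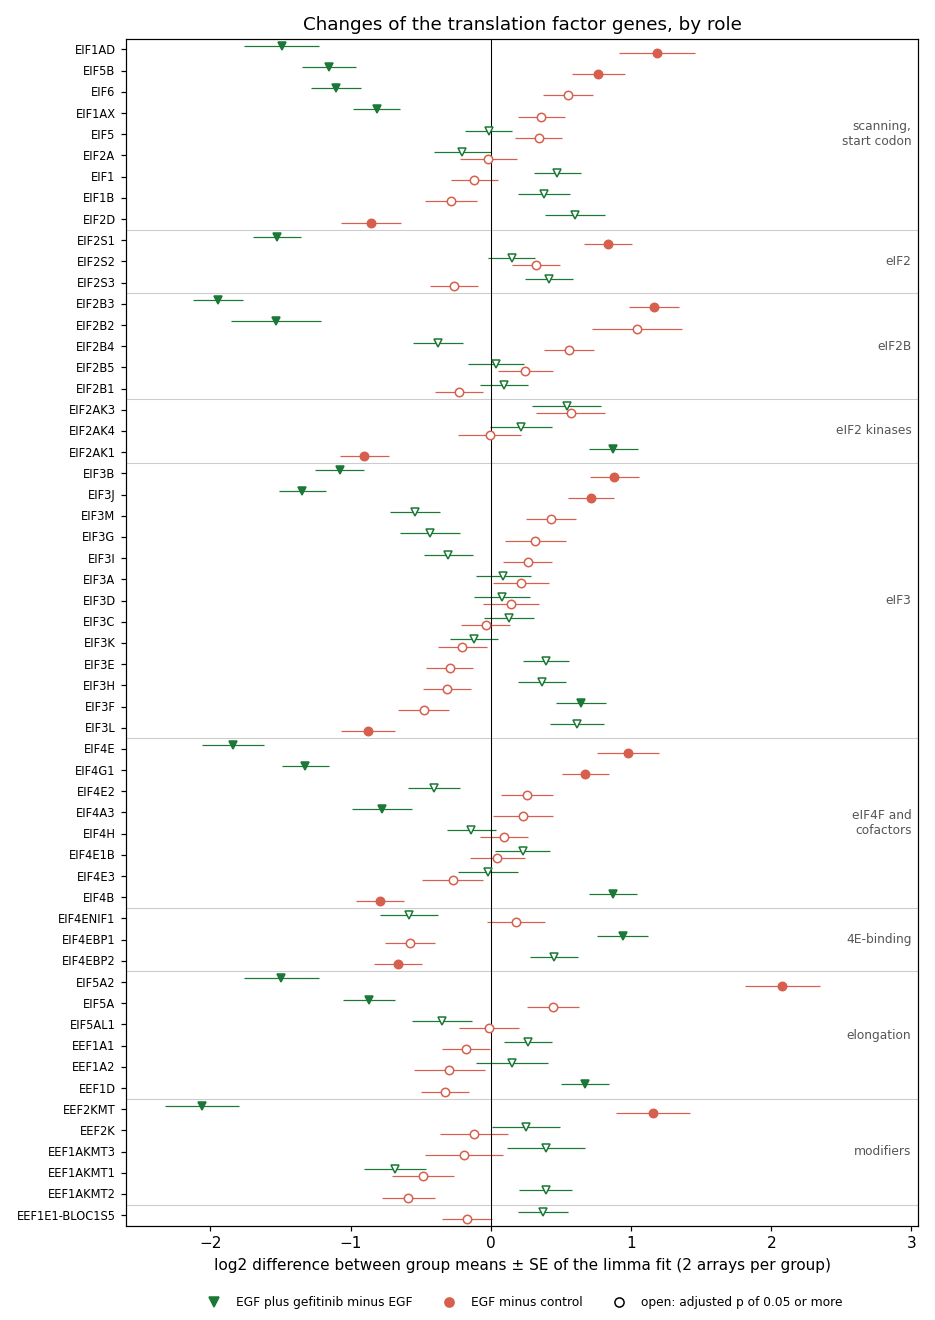
Log2 differences ± SE (x axis) of 56 genes grouped by role, with circles for EGF against control and triangles for EGF plus gefitinib against EGF. Filled points mark genes called by limma. EIF5A2 is the farthest to the right in the comparison of EGF with control (2.08) and in that of EGF plus gefitinib with EGF the measured EIF2B3 lies at -1.95, while EEF2KMT, drawn at its fitted value, has only a bound.

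Between EGF plus gefitinib and control, 0 genes rose and 1 fell at the same threshold, where 2.19% of all probe sets were called higher and 1.7% lower (3.89% either way). Among the 9211 probe sets above the limit 4.15% were higher and 3.33% lower (7.48% either way), and none of the 50 genes was called. At an unadjusted p under 0.05 there were 2 higher and 10 lower, where 2298 and 2159 of all 21448 probe sets were higher and lower. The fit on the 9211 probe sets alone called 2 higher and 8 lower (27.6% of the 9211 either way). The gene that fell, EEF1AKMT1, lay below the limit on every array, at 5.28 and 4.77 with EGF plus gefitinib against 6.27 and 6.12 in control. No fold is given for it, the fitted log2 difference was -1.17 (limma adjusted p = 0.0381), and the call was lost without any 1 of the 4 arrays (0.0601 to 0.178). The median log2 difference of the 57 genes was -0.11, against 0.01 over all probe sets.

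Levels with EGF plus gefitinib can be set beside control for the genes named by the comparison with EGF, as a description, since the same EGF plus gefitinib arrays chose them. Of the 15 genes called lower than with EGF, 14 lay below the control mean, 12 of them with both arrays below both control arrays, and EIF5A2 lay above. Both arrays lay below both controls for 22 of all 57 genes and for 24.7% of all probe sets, a share not taken among the probe sets above the limit. The 15 genes, picked for low values on these arrays, had a median difference from control of -0.54. None of the 15 passed the test against control. EIF2B3 came nearest at -0.78 (limma adjusted p = 0.0609), followed by EIF2S1 at -0.69 (adjusted p = 0.0754), EIF4E at -0.86 and EIF4G1 at -0.65 (adjusted p = 0.081 each) and EIF3J at -0.63 (adjusted p = 0.0855). Of the 5 genes called higher than with EGF, 4 lay above the control mean.

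**Figure D4:**
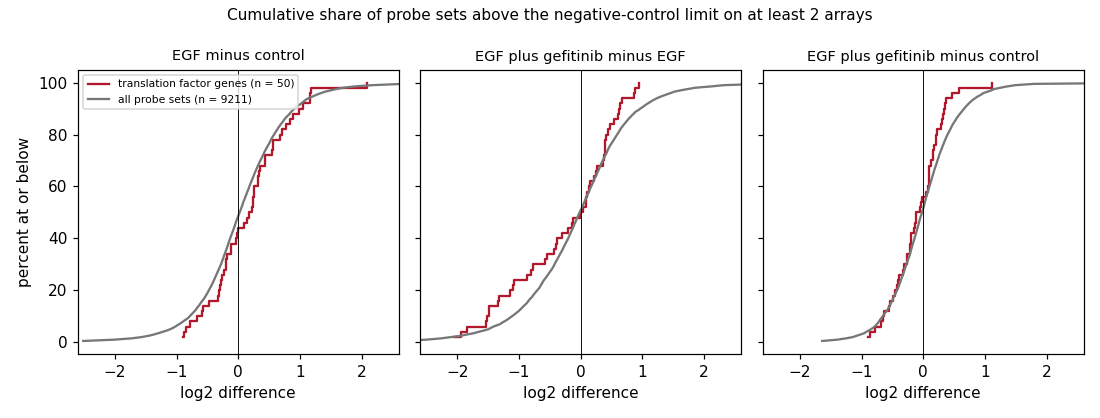
Cumulative share (y axis) of log2 differences (x axis) for the 50 genes and for all 9211 probe sets above the limit on at least 2 arrays, with a panel per comparison. The medians of the 50 genes and of all are 0.20 and 0.02 for EGF against control, 0.01 and -0.02 for EGF plus gefitinib against EGF, and -0.08 and -0.02 for EGF plus gefitinib against control.

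Other genes of translation were taken from 8 lists, with 66 of 74 listed genes measured. With EGF, 10 of the 66 rose (15.2%) and 2 fell (3.03%) relative to control, against 6.61% and 5.3% of all probe sets. Among the 9211 probe sets above the limit the shares were 13.3% and 9.88%. With EGF plus gefitinib, 7 rose (10.6%) and 14 fell (21.2%) relative to EGF, against 8.86% and 9.81% of all and 15.7% and 19.8% of the 9211. Relative to control 6 rose (9.09%) and 2 fell (3.03%), against 2.19% and 1.7% of all and 4.15% and 3.33% of the 9211. Each single list holds few genes, and its counts stand beside the same shares. In the termination and recycling list, 3 of 7 genes fell with EGF plus gefitinib relative to EGF and none was called with EGF. These were ETF1, the release factor that reads stop codons, at -1.38 (limma adjusted p = 0.0038), its GTPase partner GSPT1 at -1.23 (adjusted p = 0.00331) and the recycling ATPase ABCE1 at -1.37 (adjusted p = 0.00337). GSPT1 had 13.20 and 13.28 with EGF plus gefitinib, 14.45 and 14.49 with EGF, and 13.84 and 13.82 in control, so that the 3 groups did not overlap. With EGF plus gefitinib against EGF, PABPC4 was higher by 0.70 (adjusted p = 0.0287) and PABPN1 differed by -0.97 (adjusted p = 0.0108), both poly(A)-binding proteins from a list of 6 genes. In the list of selenocysteine factors 1 of 5 genes rose in that comparison.

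In the list of eIF2 phosphatase subunits and the ATF4 branch, 2 of 8 genes were higher with EGF plus gefitinib than in both other groups, and none was called for EGF against control. PPP1R15A, known as GADD34, which directs a phosphatase to eIF2 alpha, gave 11.30 and 11.06 with EGF plus gefitinib, 9.13 and 8.93 with EGF, and 8.94 and 9.16 in control. It differed by 2.15 ± 0.19 from EGF (limma adjusted p = 0.000789) and by 2.13 ± 0.19 from control (adjusted p = 0.00743). ATF4, the transcription factor translated when eIF2 alpha is phosphorylated, read 14.44 and 14.36 with EGF plus gefitinib, 12.91 and 12.86 with EGF, and 13.33 and 13.36 in control. Its differences were 1.51 from EGF (adjusted p = 0.00158) and 1.05 from control (adjusted p = 0.0254). The other 6 genes of this list were not called.

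In the list of kinases and their regulators, 3 of 17 genes rose and 1 fell with EGF. DDIT4, an inhibitor of mTOR complex 1 known as REDD1, rose with EGF by 1.08 (limma adjusted p = 0.0116) and was higher still with EGF plus gefitinib, by 0.71 against EGF (adjusted p = 0.0331) and 1.78 against control (adjusted p = 0.0091). SESN2, another inhibitor of that complex, fell with EGF by 1.06 on the log2 scale (adjusted p = 0.0327) and was higher by 1.81 with EGF plus gefitinib than with EGF (adjusted p = 0.00304). RPS6KA3, a ribosomal S6 kinase of the ERK pathway, rose by 0.97 with EGF (adjusted p = 0.0191) and differed by -0.73 between EGF plus gefitinib and EGF (adjusted p = 0.0359). In the latter comparison 3 genes of the list rose and 2 fell, with larger changes than RPS6KA3 for RPS6KA1 (-1.13, adjusted p = 0.01) and TSC1 (0.79, adjusted p = 0.0213). Between EGF plus gefitinib and control 2 rose and 1 fell, RICTOR being higher by 1.34 (adjusted p = 0.0282).

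Among 8 genes listed as helicases and scaffolds, LARP1 and LARP4, both RNA-binding proteins, were higher with EGF by 0.90 and 1.5 (limma adjusted p = 0.0171 and 0.00412). With EGF plus gefitinib 3 of the 8 were lower than with EGF. They were LARP1 at -0.73 (adjusted p = 0.0247), LARP4 at -1.48 (adjusted p = 0.00235) and the helicase DDX3X at -0.86 (adjusted p = 0.0167). Of 7 hypusine and diphthamide enzymes 3 rose and 1 fell with EGF, but DPH3 and DPH7 of those that rose lay below the limit on every array. The gene that fell was DPH6, above the limit on 3 arrays, with a fitted difference of -1.33 (adjusted p = 0.0169). With EGF plus gefitinib DPH6 was also called lower than in control, at -1.54 (adjusted p = 0.0262). DPH2, which takes part in making the diphthamide of eEF2, read 9.44 and 9.40 with EGF plus gefitinib, 11.40 and 11.23 with EGF, and 10.15 and 10.31 in control. The differences were 1.08 ± 0.18 for EGF (adjusted p = 0.011) and -1.90 ± 0.18 for EGF plus gefitinib against EGF (adjusted p = 0.000898). Among 8 mitochondrial translation factors, GFM1, an elongation factor, and MTRF1L, a release factor, rose with EGF by 0.98 and 0.90 (adjusted p = 0.0144 and 0.0211), and both were lower with EGF plus gefitinib than with EGF, by -1.18 and -1.38 (adjusted p = 0.00446 and 0.00278).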

How the data were processed

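RNA of 6 samples of A431 cells was measured on 1 array each. The authors' log2 values were used, the scale being read from the values. Per the submitters' processing notes the program was Transcriptome Analysis Console. Not given in the sources used here are its version and how it corrected background and normalized. No further normalization was applied to the deposited values.

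After 2903 control probe sets were left out of 24351, all 21448 were tested, with no filter on low values. Array medians were 6.07 to 6.16, and 38.4% to 42.1% of probe sets exceeded the negative-control limit. Arrays of 1 group correlated at 0.991 to 0.994 over probe sets. The platform annotation named 17709 probe sets. Array data have no read depth, so precision is limited by how many arrays there are. A group at or below the limit on both arrays has only a bound, and its fold was taken against the limit.

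Groups were compared with limma 3.58.1 in R 4.3.3 (lmFit and eBayes), as 1 fit of 3 group means with degrees of freedom of 3 (residual) and 4.22 (prior). All tests were two-sided, with Benjamini-Hochberg adjustment over 21448 probe sets and a threshold of 0.05. On simulated data for EGF against control, 7% of 100 probe sets changed by 1 on the log2 scale and 74% of 100 changed by 2 were recovered. The unchanged probe sets gave 2 false calls. No further probe sets were changed in the simulation, while 11.9% of all were called in the data. The recovered shares therefore need not hold for the data.

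The genes, roles, lists and motifs were chosen with earlier results of these data known. Values on every array are given for up to 8 called genes with the largest rise and 8 with the largest fall per comparison and for a fixed list of central factors. At most 3 called genes are named per list and comparison, except in the list of kinases and that of hypusine and diphthamide enzymes. EIF2AK3, which no comparison called and which is not on the fixed list, has values on every array by choice after these were seen. The same holds for GSPT1, PPP1R15A, ATF4 and DPH2. Same-numbered arrays did not deviate together (correlations of -0.04, 0.02 and -0.0035), so numbers were not taken as pairs. Alternatives were each array left out, only the compared groups, a replicate block, quantile normalization, median centring, a filter on dim probe sets and an intensity trend. Promoters and positions are RefSeq's for GRCh38.p14.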

Additional observations from a re-analysis of the deposited data

How the results depend on the processing

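With 2 arrays a group, calls near the threshold are unstable, and dim probe sets carry little information. Differences recomputed for single genes kept their side of the threshold in 866 cases, lost a call in 130 and gained one in 42, with 0 reversals of a called sign. The 866 include differences not called in the main fit, which had no call to lose. They also include fits without an array of a group that was not compared. The 866 therefore do not measure how stable the calls are. With each array left out in turn, 1 to 9 genes were higher and 0 to 4 lower with EGF than in control (median log2 difference 0.088 to 0.16), 0 to 3 were higher and 9 to 14 lower with EGF plus gefitinib than with EGF (median -0.05 to 0.01), and 0 were higher and 0 lower with EGF plus gefitinib than in control (median -0.12 to -0.060).

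A replicate block, for numbers that did not pair the arrays, gave 6 higher and 2 lower for EGF, 3 higher for EGF plus gefitinib against EGF and 0 lower against control, with 9.51%, 16.3% and 1.55% of all probe sets called. A fit of only the 2 compared groups gave 3 higher for EGF plus gefitinib against EGF and 0 lower against control. Median centring gave 3 lower for EGF with a median of 0.15, and 3 higher with a median of -0.088 for EGF plus gefitinib against EGF. The filter on dim probe sets, which leaves 9211 to be tested, gave 8 lower for EGF with a median of 0.20, 12 higher for EGF plus gefitinib against EGF, and 2 higher and 8 lower against control. An intensity trend gave 17 higher and 12 lower for EGF, 13 higher for EGF plus gefitinib against EGF, and 5 higher and 11 lower against control, with 19.8%, 25.5% and 12.9% of all probe sets called in these comparisons. The cause of these shifts was not tested. Averaging the probe sets of a gene was not run, since every gene had 1.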
